A study of Homo sapiens with 6 samples.

Results

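SFRP1 and 9 genes of the Wnt receptor pathway were followed in Meg-01 cells treated with propionate (C3). The group of 10 genes, of 58735 in the count table, was built around SFRP1, which was chosen from this contrast because its reads were more numerous after C3. The values of SFRP1 between control and C3 are therefore given as a description, without a test. The other genes are the frizzled receptors FZD1, FZD2 and FZD6, the co-receptors LRP5 and LRP6, the effectors CTNNB1, TCF7 and LEF1, and the feedback target AXIN2.

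Wnt proteins are secreted lipid-modified ligands that bind a frizzled receptor together with LRP5 or LRP6. Binding stops the destruction complex, built on APC and axin, from marking beta-catenin for degradation, and beta-catenin then acts in the nucleus with TCF and LEF factors on genes such as AXIN2. SFRP1 is a secreted protein with a frizzled-like domain that binds Wnt proteins outside the cell and is best known as an antagonist of the pathway.

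Meg-01 is an established human megakaryoblast cell line, and propionate is a short-chain fatty acid that gut bacteria release. RNA was sequenced in 6 libraries, 3 of control cells that received no treatment and 3 of cells given 500 µM sodium propionate for 48 h. The sample records used here give no incubation time for the control libraries. The methods of the study also name a shorter incubation, and the libraries of a group are described as technical replicates, so p-values here measure the spread between libraries, which may be technical. The libraries held between 16159449 and 22821722 counts, and values below are read counts per gene scaled to a common library size, called normalized counts.

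Of the 10 genes, 9 had at least 10 counts in at least 3 libraries and entered the fit across 15078 genes. AXIN2 was below this minimum. A gene was said to rise or fall at an adjusted p below 0.05 in edgeR's quasi-likelihood test, and was called a DEG at an adjusted p below 0.01 with a fold change above 1.3. Comparisons of 3 against 3 libraries by an exact permutation test cannot go below p = 0.1, so that test alone could call no gene. On the first principal component of the tested genes, with 44.1% of the variance, control and C3 libraries lay on opposite sides. On the second, with 17.9%, control replicate 3 lay at 24.1 and the other libraries between -14.8 and 9.24, so calls that depend on control replicate 3 are named where they occur.

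SFRP1 (ENSG00000104332, GRCh38 chr8:41261962-41309473, minus strand) had 253, 259 and 288 normalized counts in control replicates 1 to 3. In C3 replicates 1 to 3 it had 574, 650 and 630. Each C3 library exceeded each control library, and the lowest C3 value was 1.99 times the highest control value. The mean was 266 ± 18.7 (SD, n = 3) in control and 618 ± 39.5 (SD, n = 3) in C3, a log2 difference of 1.22 ± 0.09 (SE). Ordered from the highest log2 fold change down, SFRP1 was number 196 of the 15078 tested genes. It was number 48 of the 11851 that averaged 50 or more normalized counts. No exon of SFRP1 overlaps an exon of another annotated gene. In bulk RNA of this kind, fewer cells of a type and less RNA per cell cannot be told apart.

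Of the 8 other genes of the group that were tested, 1 was a higher DEG, where 5.05% of all tested genes were, and 0 were lower DEGs, where 1.47% were. The gene was FZD6, and it was also the only one of the 8 that rose at an adjusted p below 0.05, where 11.0% of all tested genes rose and 8.77% fell. With DESeq2 FZD6 rose (adjusted p = 0.036) and was not a DEG, and limma-voom gave the same counts as edgeR. At an unadjusted p below 0.05 in edgeR, 3 of the 8 were higher and 0 lower, and CTNNB1 was lower at that level with DESeq2 and with limma-voom. No share of all tested genes is given at that level, so nothing is read from these counts. Control and C3 libraries did not overlap for 5 of the 8, where 34.4% of all tested genes did not overlap.

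The frizzled genes encode the cell surface receptors to which Wnt ligands bind. FZD6 (ENSG00000164930, chr8:103298433-103332866), a frizzled that is mostly tied to the planar cell polarity branch, had 115, 91.2 and 88.4 normalized counts in the control libraries. In the C3 libraries it had 142, 149 and 143. The groups did not overlap, and the C3 libraries lay closer together than the control libraries. The mean was 98.1 ± 14.4 (SD, n = 3) in control and 145 ± 3.93 (SD, n = 3) in C3, a log2 fold change of 0.55 ± 0.15 (SE) at an adjusted p of 0.0085 in edgeR. The exact permutation p was 0.1. FZD6 was no longer a DEG without control replicate 2 (adjusted p = 0.051), control replicate 3 (0.037), C3 replicate 1 (0.011), C3 replicate 2 (0.028) or C3 replicate 3 (0.031), and only without control replicate 2 did it no longer rise at 0.05. A share of 3.39% of its exon bases lies opposite BAALC-AS1, and reads of the pair cannot be told apart without strand, whose setting is not given in the sources used here.

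FZD1 and FZD2 did not pass the test. FZD1 (chr7:91264433-91271326) had 282, 306 and 291 normalized counts in control and 278, 301 and 301 in C3. The ranges overlapped, with a log2 fold change of 0.00 ± 0.10 (SE) and an adjusted p of 0.99 in edgeR. FZD2 (chr17:44557484-44561262) had 313, 375 and 322 in control and 395, 394 and 349 in C3. The lowest C3 library lay below the highest control library, and the log2 fold change was 0.17 ± 0.10 (SE) with an adjusted p of 0.25.

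LRP5 and LRP6 are the single-pass co-receptors that pass the signal of canonical Wnt ligands into the cell. LRP5 (chr11:68312591-68449275) had 4690, 4577 and 3828 normalized counts in control and 5099, 4171 and 4482 in C3. Both groups spread over a wide range and overlapped, and the log2 fold change was 0.07 ± 0.08 (SE, adjusted p = 0.58 in edgeR). LRP6 (chr12:12116025-12267044) had 623, 615 and 556 in control and 675, 680 and 683 in C3. Here the C3 libraries were all above control and close together (SD 4.07, n = 3), yet the difference did not pass, with a log2 fold change of 0.18 ± 0.08 (SE) and an adjusted p of 0.093. Scaled by library size alone, LRP6 passed at an adjusted p of 0.026. The ratio of LRP5 to LRP6 per kb of exon was 12.2 ± 0.59 (SD, n = 3) in control and 11.3 ± 1.22 (SD, n = 3) in C3.

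CTNNB1 encodes beta-catenin, the effector that the destruction complex holds down. CTNNB1 (chr3:41194741-41260096) had 5552, 5647 and 5444 normalized counts in control and 5369, 4928 and 5003 in C3. All 3 C3 libraries lay below all 3 control libraries, by a log2 fold change of -0.12 ± 0.06 (SE) that did not pass (adjusted p = 0.17 in edgeR). Without C3 replicate 1 the adjusted p was 0.028, and over all alternatives it lay between 0.028 and 0.58. mRNA counts do not measure beta-catenin protein, which is the level at which the pathway controls it.

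TCF7 and LEF1 encode DNA-binding partners of beta-catenin, and both are also counted among its target genes. TCF7 (chr5:134114681-134151865) had 48.0, 27.6 and 35.8 normalized counts in control and 55.8, 48.8 and 53.3 in C3. The lowest C3 library was barely above the highest control library, and the log2 fold change of 0.49 ± 0.24 (SE) did not pass (adjusted p = 0.15 in edgeR). LEF1 (chr4:108047545-108168956) had 577, 587 and 539 in control and 600, 670 and 608 in C3. Its groups did not overlap either, with a log2 fold change of 0.14 ± 0.08 (SE) and an adjusted p of 0.23. LEF1-AS1 lies opposite 5.2% of the exon bases of LEF1.

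AXIN2 encodes a scaffold of the destruction complex and is the most widely used readout of canonical signalling. AXIN2 (chr17:65528563-65561648) had 8, 1 and 4 raw counts in the control libraries and 9, 13 and 14 in the C3 libraries. Every C3 library was above every control library, but all 6 values were small. The ratio of summed counts, 36 in C3 to 13 in control, was 2.42 after scaling, with an exact 95% interval for counting error of 1.26 to 4.98. As a log2 ratio of mean normalized counts it was 1.3, and it was 1.94 without control replicate 1 and 0.83 without control replicate 2. The exact permutation p was 0.1. With no minimum on counts, edgeR gave a log2 fold change of 1.27 ± 0.60 (SE) and an adjusted p of 0.20. A share of 25.3% of the exon bases of AXIN2 is shared with an overlapping gene on the same strand, so its counts are uncertain.

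Levels of different genes were compared as normalized counts per kb of all annotated exons merged. In control cells the order was LRP5 (706 ± 75.8, SD), CTNNB1 (472 ± 8.64), LEF1 (106 ± 4.81), FZD2 (89.2 ± 8.86), LRP6 (57.7 ± 3.51), SFRP1 (56.3 ± 3.96), FZD1 (42.5 ± 1.78), FZD6 (24.1 ± 3.54), TCF7 (3.68 ± 1.02) and AXIN2 (0.877 ± 0.653). Only the ranges of LRP6 and SFRP1 overlapped among neighbours in this order. In C3 cells the 10 genes kept this order apart from SFRP1, which stood in the third place at 131 ± 8.34 per kb, with a range that overlapped LEF1 at 117 ± 7.16.

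The 10 frizzled genes of the genome were added up per kb of exon to set SFRP1 beside the receptors. Their summed level was 324, 353 and 332 per kb in the control libraries and 400, 400 and 382 in the C3 libraries, without overlap. FZD7 held the largest share, 31.8% ± 0.762 (SD, n = 3) in control and 30.4% ± 0.82 in C3, and FZD2 followed. The level of SFRP1 came to 16.5%, 15.5% and 18.3% of the frizzled sum in control and 30.3%, 34.3% and 34.8% in C3. The share of FZD8 within the sum was 3.69% ± 1.34 in control and 6.24% ± 0.571 in C3, and the share of FZD6 was 7.2% ± 1.3 and 9.04% ± 0.257.

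The wider pathway was read from 9 lists by role with 121 genes, of which 86 were tested. Without SFRP1, 14 of 85 tested genes were higher DEGs and 0 were lower DEGs in edgeR, where 5.05% and 1.47% of all tested genes were. DESeq2 gave 13 higher and 0 lower, and limma-voom gave 14 and 0. At an unadjusted p below 0.05 in edgeR 35 genes were higher and 5 lower, for which no share of all tested genes is given. At an adjusted p below 0.05 with no fold minimum, 26 rose, 3 fell and 56 did not pass, where 11.0% of all tested genes rose and 8.77% fell. The genes were chosen with earlier results known, so nothing is read from these shares. SFRP4 and CELSR1, both among the 56, reached the count minimum only through the C3 libraries. The median log2 fold change of these 85 genes was 0.15, and that of all 15078 tested genes was 0.00. Of the 14 higher DEGs, 11 kept the call in every alternative fit that tested them, the exceptions being FZD6, FZD8 and CELSR2. With DESeq2, 20 rose, and WNT5A, FZD5, ROR1, TCF7L2, TLE4 and DAAM1 no longer passed.

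Among 19 Wnt ligand genes, 13 did not reach the count minimum, and WNT2, WNT9B and WNT16 had 0 counts in all 6 libraries, which allows up to 3 counts in all, or 0.0269 CPM. WNT10B was the ligand gene with the highest level per kb, at 114 in control and 112 in C3, and it did not pass (log2 fold change -0.03 ± 0.10, SE). WNT2B was a higher DEG with 18.6, 31.8 and 11.9 normalized counts in control and 51.2, 63.2 and 50.2 in C3. Its log2 fold change was 1.38 ± 0.29 (SE, adjusted p = 0.0012 in edgeR), with no overlap between the groups. ST7L lies opposite 21.5% of the exon bases of WNT2B, so part of these reads may belong to ST7L. WNT11, a ligand of the non-canonical branches, rose without reaching the DEG gate, from 89.1, 82.7 and 87.2 to 145, 116 and 124 (log2 fold change 0.56 ± 0.15, adjusted p = 0.0103). WNT5A, another non-canonical ligand, rose by 0.92 ± 0.32 (SE, adjusted p = 0.039), and this call was lost without control replicate 1 (0.15), control replicate 3 (0.093), C3 replicate 2 (0.053) or C3 replicate 3 (0.15).

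WLS, which carries lipid-modified Wnt proteins to the cell surface, was a higher DEG. It had 111, 124 and 97.9 normalized counts in control and 186, 175 and 216 in C3, with every C3 library above every control library. The log2 fold change was 0.80 ± 0.14 (SE, adjusted p = 0.00018 in edgeR). PORCN, the enzyme that attaches the lipid, had 135 ± 20.4 (SD, n = 3) in control and 170 ± 21.3 in C3 and did not pass (adjusted p = 0.12).

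Of 14 tested receptor and co-receptor genes, 2 were higher DEGs, FZD6 and FZD8, and 3 more rose below the DEG gate, where 5.05% of all tested genes were higher DEGs and 11.0% rose. With DESeq2 1 was a higher DEG and 3 rose. FZD8 had 50, 32.9 and 66.9 normalized counts in control and 91.1, 109 and 98.8 in C3. The groups were apart, although the control libraries differed among themselves, and the log2 fold change was 1.01 ± 0.21 (SE, adjusted p = 0.00092 in edgeR). Without control replicate 2 it was 0.79 with an adjusted p of 0.012 and FZD8 was not a DEG. PTK7, a co-receptor of the planar cell polarity branch, rose by 0.31 ± 0.07 (SE, adjusted p = 0.0021). FZD5 rose by 0.36 ± 0.12 (adjusted p = 0.04) and ROR1, a receptor for WNT5A, by 0.90 ± 0.32 (adjusted p = 0.048). The FZD5 call was lost without control replicate 1 or 2 or C3 replicate 1, with an adjusted p of at most 0.15, and the ROR1 call without any single library other than C3 replicate 1, with an adjusted p of at most 0.17. ROR1 also did not pass with no count minimum (0.056).

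Of 8 tested extracellular inhibitor genes other than SFRP1, 3 were higher DEGs and 5, SFRP4 among them, did not pass. Over all tested genes, 5.05% were higher DEGs. NOTUM, an enzyme that removes the lipid from Wnt proteins, had 305, 322 and 269 normalized counts in control and 517, 406 and 432 in C3. KREMEN1, a receptor for DKK proteins that clears LRP6 from the surface, had 223, 210 and 177 in control and 345, 284 and 321 in C3. TRABD2A, a membrane protease that cleaves Wnt proteins and is also called TIKI1, had 24.5, 13.8 and 26.3 in control and 43.3, 62.2 and 61.2 in C3. In all 3 genes every C3 library was above every control library. The log2 fold changes were 0.59 ± 0.10 (SE) for NOTUM (adjusted p = 0.00017 in edgeR), 0.63 ± 0.11 for KREMEN1 (adjusted p = 0.00026) and 1.38 ± 0.27 for TRABD2A (adjusted p = 0.00072). SOSTDC1, an inhibitor that binds LRP6, lay the other way, with 60.7, 57.3 and 50.1 normalized counts in control and 37.6, 33.5 and 40 in C3. Its groups did not overlap, and its log2 fold change of -0.60 ± 0.22 (SE) did not pass (adjusted p = 0.057).

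Of the relatives of SFRP1, SFRP5 was at a level per kb of exon like that of SFRP1 in control, 56.6 ± 13.4 (SD, n = 3) beside 56.3 ± 3.96. SFRP5 had 107 ± 25.2 (SD, n = 3) normalized counts in control and 114 ± 28.7 in C3 and did not pass (log2 fold change 0.07 ± 0.19, SE). SFRP4 had between 2.94 and 9.55 in control and between 8.63 and 23 in C3, with overlapping groups. It did not pass (adjusted p = 0.055 in edgeR), and it reached the count minimum only through the C3 libraries, in which it is high, so its test is not independent of that minimum. SFRP2 and FRZB stayed below the count minimum, with at most 6.83 and 4.79 normalized counts in any library. Among the DKK genes, DKK2 and DKK4 had 0 counts in all libraries, DKK1, an antagonist that binds LRP5 and LRP6, had at most 2.94 normalized counts, and DKK3 had at most 9.11, with 47.5% of its exon bases opposite USP47.

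The R-spondin axis raises the amount of frizzled and LRP proteins at the surface by drawing off the ligases ZNRF3 and RNF43. Of its 9 genes 3 were tested, and 0 passed in edgeR, DESeq2 or limma-voom, with 1 higher at an unadjusted p below 0.05 in edgeR. Over all tested genes 11.0% rose and 8.77% fell at an adjusted p below 0.05, so nothing is read from 0 of 3. Nor is anything read from the 1 at an unadjusted p, for which no such share is given. RSPO1 and RSPO2 had 0 counts in all libraries and LGR5 at most 1.14 normalized counts. LGR4, the receptor gene with the highest level per kb in this list, was at 69.3 per kb in control and 75.0 in C3, with a log2 fold change of 0.12 ± 0.08 (SE, adjusted p = 0.35). ZNRF3 had 420, 343 and 339 normalized counts in control and 412, 452 and 408 in C3, and its adjusted p was 0.14.

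Among 16 tested genes of dishevelled and the destruction complex, 1 was a higher DEG, 1 more rose and 2 fell, counts close to the shares over all tested genes (5.05% higher DEGs, 11.0% rose and 8.77% fell). APC, the scaffold that holds beta-catenin in the complex, had 1305, 1342 and 1298 normalized counts in control and 1608, 1889 and 1822 in C3. The C3 libraries were all higher, and the log2 fold change was 0.43 ± 0.07 (SE, adjusted p = 5.4e-05 in edgeR). CSNK1E, a kinase that acts on dishevelled, rose by 0.32 ± 0.07 (adjusted p = 0.0028), and 18.5% of its exon bases are shared with the read-through gene TPTEP2-CSNK1E. BTRC, the ligase subunit that recognises phosphorylated beta-catenin, had 638, 655 and 653 in control and 512, 499 and 521 in C3. Its log2 fold change was -0.35 ± 0.08 (SE, adjusted p = 0.0018), with all C3 libraries below control. GSK3A, a kinase of the complex, fell by 0.20 ± 0.06 on the log2 scale (adjusted p = 0.024), a call lost without control replicate 1, 2 or 3 or C3 replicate 3, with an adjusted p of at most 0.11, and scaled by library size alone (0.19). AXIN1, GSK3B and the dishevelled genes DVL1, DVL2 and DVL3 did not pass, and DVL1 was the highest of the list per kb, at 433 in control and 459 in C3.

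Of 17 nuclear genes, all tested, 3 were higher DEGs, 3 more rose and 1 fell, where 5.05% of all tested genes were higher DEGs, 11.0% rose and 8.77% fell. TLE2, a Groucho corepressor that binds TCF factors, had 125, 122 and 131 normalized counts in control and 288, 252 and 256 in C3. TLE1, another Groucho corepressor, had 248, 244 and 223 in control and 356, 364 and 365 in C3. TCF7L1, the TCF factor most often described as a repressor, had 21.6, 21.2 and 29.9 in control and 47.8, 62.2 and 64.3 in C3. All 3 C3 libraries exceeded all control libraries in these 3 genes. The log2 fold changes were 1.07 ± 0.12 (SE) for TLE2 (adjusted p = 4.6e-07 in edgeR), 0.60 ± 0.10 for TLE1 (adjusted p = 8.1e-05) and 1.28 ± 0.25 for TCF7L1 (adjusted p = 0.00064).

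BCL9L, a coactivator of beta-catenin, rose by 0.33 ± 0.08 (SE, adjusted p = 0.0039 in edgeR), with 37.5% of its exon bases opposite other genes. TCF7L2 rose by 0.40 ± 0.13 (adjusted p = 0.026) and TLE4 by 0.35 ± 0.12 (adjusted p = 0.049). The TCF7L2 call was lost without control replicate 1 or 2 or C3 replicate 3 (adjusted p at most 0.13), and the TLE4 call without control replicate 2 or 3 or C3 replicate 2 or 3 (at most 0.19) and with RLE factors (0.052). CTNNBIP1, which keeps TCF factors from beta-catenin, had 520, 539 and 490 normalized counts in control and 433, 412 and 382 in C3. All C3 libraries were lower, and its log2 fold change was -0.34 ± 0.09 (SE, adjusted p = 0.0052). It did not pass without C3 replicate 3 (adjusted p = 0.061). TLE5 was the highest of the list per kb, at 1043 in control and 970 in C3, and did not pass.

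Promoter letters were read for the 10 genes and for the pathway genes that were higher DEGs. The RefSeq table of promoters (GRCh38.p14, from 250 bases before to 50 bases after the start) matched 5 of the 10 genes, FZD1, LRP5, CTNNB1, TCF7 and LEF1, and 9 of the 14 higher DEGs of the wider pathway. The TCF and LEF letters CTTTGAT or CTTTGAA, on either strand, were in 0 of these 5 and 0 of these 9, and in 6.86% of all 35116 promoters of the table. The GC box letters GGGCGG, on either strand, were in 5 of the 5 and 6 of the 9, and in 45.0% of all promoters. Of the 88 matched genes of all pathway lists, 69 held the GC box letters. Nothing about the genes that rose is therefore read from these counts. A match is a description of letters, and no match says only that they are not in this window. Of the 20 common target genes 10 were matched, and 3 of these, SP5, DKK1 and CDX2, held the TCF and LEF letters. They were the only 3 among the 88 matched genes of all pathway lists. The 250 bases before the start are shown for SP5, at chr2:170715087-170715336 (plus strand), as the target gene with the most matches, and for FZD8 at chr10:35642297-35642546 (minus strand), TCF7L1 at chr2:85133142-85133391 (plus strand) and TLE2 at chr19:3047636-3047885 (minus strand), as 1 receptor and 2 nuclear genes that rose together. Capitals mark the TCF and LEF letters in SP5 and the GC box in the others.
SP5: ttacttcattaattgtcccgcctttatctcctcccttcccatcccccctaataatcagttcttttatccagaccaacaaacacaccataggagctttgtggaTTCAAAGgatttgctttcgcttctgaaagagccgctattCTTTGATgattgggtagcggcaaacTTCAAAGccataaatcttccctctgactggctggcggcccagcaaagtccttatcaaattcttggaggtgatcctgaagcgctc
FZD8: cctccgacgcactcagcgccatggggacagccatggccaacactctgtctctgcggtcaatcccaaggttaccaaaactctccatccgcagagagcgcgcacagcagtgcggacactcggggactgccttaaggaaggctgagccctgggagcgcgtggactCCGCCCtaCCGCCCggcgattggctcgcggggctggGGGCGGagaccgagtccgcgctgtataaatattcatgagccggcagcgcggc
TCF7L1: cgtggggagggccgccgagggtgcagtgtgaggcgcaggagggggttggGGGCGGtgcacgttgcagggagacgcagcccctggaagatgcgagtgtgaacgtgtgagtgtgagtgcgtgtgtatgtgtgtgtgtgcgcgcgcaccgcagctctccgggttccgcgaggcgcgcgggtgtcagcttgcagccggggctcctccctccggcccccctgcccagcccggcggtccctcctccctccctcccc
TLE2: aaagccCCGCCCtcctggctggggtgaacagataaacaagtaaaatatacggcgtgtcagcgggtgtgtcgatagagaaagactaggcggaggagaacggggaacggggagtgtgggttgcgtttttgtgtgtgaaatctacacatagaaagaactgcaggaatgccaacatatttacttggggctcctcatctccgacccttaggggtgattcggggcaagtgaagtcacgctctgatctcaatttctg
The matches in SP5 begin 148, 109 and 84 bases before the start, and those in FZD8 begin 88, 80 and 52 bases before it. TCF7L1 and TLE2 have 1 each, 201 and 244 bases before the start. SP5 itself had between 1.19 and 9.54 normalized counts in control and between 3.14 and 7.66 in C3, below the count minimum.

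Of 20 common target genes of beta-catenin, 12 were tested, 3 were higher DEGs, 1 more rose and 0 fell in edgeR, DESeq2 or limma-voom. Over all tested genes 5.05% were higher DEGs, 11.0% rose and 8.77% fell in edgeR. At an unadjusted p below 0.05 in edgeR, 6 of the 12 were higher and 0 lower. No share of all tested genes is given at that level. CCND1, which encodes cyclin D1, had 1875, 1691 and 1650 normalized counts in control and 2677, 2607 and 2645 in C3. The groups were far apart relative to their spread, and the log2 fold change was 0.60 ± 0.06 (SE, adjusted p = 2.1e-07). NKD1, a feedback inhibitor that binds dishevelled, had 167, 141 and 118 in control and 256, 236 and 283 in C3, with no overlap and a log2 fold change of 0.86 ± 0.13 (SE, adjusted p = 2.9e-05). NOTUM, described above, was the other DEG of this list. NKD2 rose by 0.38 ± 0.11 (adjusted p = 0.015), with overlapping groups, and did not pass without control replicate 3 or C3 replicate 3, with an adjusted p of at most 0.11.

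Other target genes gave no call. MYC had the highest level per kb of the list, with 13476, 13829 and 13213 normalized counts in control and 15197, 14487 and 14045 in C3. Its C3 libraries were all higher, but the log2 fold change of 0.11 ± 0.06 (SE) did not pass (adjusted p = 0.24 in edgeR). Scaled by library size alone, the adjusted p of MYC was 0.017. BAMBI had 3375 ± 116 (SD, n = 3) in control and 3156 ± 103 in C3, and CDX2 had 162 ± 18.7 and 138 ± 14.2, with overlapping groups in both. RNF43 had at most 17 normalized counts, ASCL2 at most 10.2, APCDD1 at most 2.87 and CDX1 had 0 counts in all libraries. Of the exon bases of RNF43, 68.4% overlap other genes on the same strand, so its counts are uncertain.

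In the planar cell polarity branch, which uses frizzled without beta-catenin, 1 of 11 tested genes was a higher DEG and 2 more rose, where 5.05% of all tested genes were higher DEGs and 11.0% rose. CELSR1, 1 of the 8 that did not pass, reached the count minimum only through the C3 libraries. CELSR2, an adhesion receptor of this branch, had 1421, 1288 and 1045 normalized counts in control and 1725, 1642 and 1718 in C3. The groups did not overlap, with control replicate 3 the lowest, and the log2 fold change was 0.43 ± 0.08 (SE, adjusted p = 0.00034 in edgeR). Without control replicate 3 it was 0.32, under the fold gate of a DEG, at an adjusted p of 0.0027. VANGL2 rose by 0.35 ± 0.08 (adjusted p = 0.0039) and DAAM1 by 0.35 ± 0.11 (adjusted p = 0.02). The DAAM1 call was lost without control replicate 1 or 3 or C3 replicate 2 or 3 (adjusted p at most 0.13). SCRIB was the highest of the list per kb, at 631 in control and 641 in C3, and did not pass.

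Around SFRP1, 5 tested genes lie within 500 kb. ZMAT4, GOLGA7, GINS4, GPAT4 and ANK1 had log2 fold changes between -0.09 and 0.13 with overlapping groups. In edgeR, DESeq2 and limma-voom 0 of the 5 passed, where 11.0% of all tested genes rose and 8.77% fell in edgeR. At an unadjusted p below 0.05, for which no such share is given, there were also 0. The nearest, GOLGA7, lies 179 kb away and had 1153, 1137 and 1309 normalized counts in control and 1143, 1209 and 1114 in C3.

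The genes most like SFRP1 were found by the distance between log2 normalized counts (pseudocount 1), centred on each gene's mean over the 6 libraries. Among 11850 genes with a mean of at least 50, PAQR5 was the closest, at a distance of 0.12, with 54.9, 54.1 and 62.1 normalized counts in control and 117, 136 and 125 in C3. CAV1 (0.189), HES7 (0.204), BST2 (0.24) and DSP (0.247) followed. All 5 have log2 differences between 1.15 and 1.27, beside 1.22 for SFRP1, which the measure of likeness brings about, so no test is given. CAV1 encodes the coat protein of caveolae, HES7 a transcriptional repressor that acts downstream of Notch, BST2 tetherin and DSP desmoplakin.

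**Figure D1:**
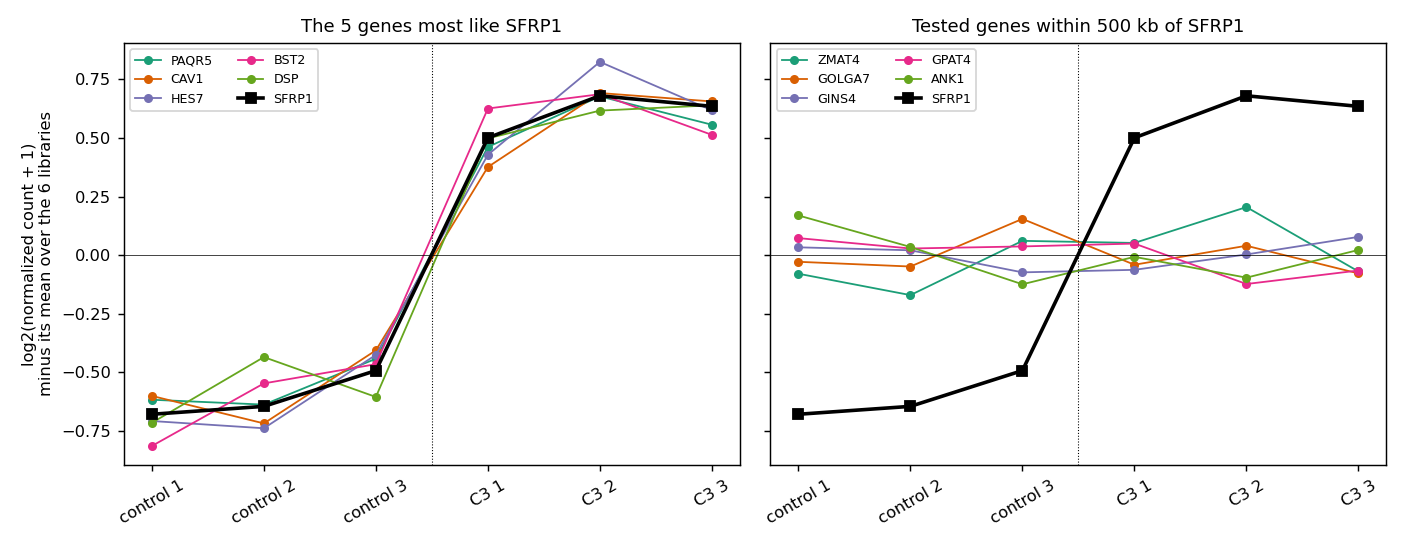
Log2 of normalized count plus 1, minus its mean over the 6 libraries, for SFRP1 (black squares) with the 5 genes most like it (left) and with the 5 tested genes within 500 kb (right); lines join the values of 1 gene. On the left all profiles are low in control and high in C3, and on the right only SFRP1 is.

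The cell line was checked against 14 megakaryocyte markers. The integrin subunit ITGA2B had 12966, 13256 and 12484 normalized counts in control and 13336, 11611 and 12185 in C3, and the factors FLI1 and GATA1 had between 1759 and 5111. PF4 and GP1BB had 0 counts in every library, and both share exon bases with overlapping genes on the same strand (52.1% of PF4 and 100% of GP1BB). Summed, the markers had 28852, 28976 and 27591 in control and 28164, 25757 and 26487 in C3. Of the 12 tested markers, GP1BA, NFE2 and TUBB1 fell, and ITGB3 rose (adjusted p = 0.033 in edgeR). Over all tested genes 8.77% fell and 11.0% rose. Of the exon bases of ITGB3, 33.2% are shared with another gene. The ITGB3 call held without C3 replicate 1 and was lost without control replicate 1, 2 or 3 or C3 replicate 2 or 3 (adjusted p at most 0.17) and with DESeq2 (0.11). TUBB1, a platelet tubulin, had 42.1, 41.4 and 38.2 in control and 9.11, 19.1 and 18 in C3 (log2 fold change -1.36 ± 0.31, SE, adjusted p = 0.0025 in edgeR), and was not a DEG without control replicate 1 (0.013) or C3 replicate 1 (0.011). ATP5F1E lies opposite 35.5% of the exon bases of TUBB1, and reads of the pair cannot be told apart without strand. GP1BA had a log2 fold change of -0.49 ± 0.06 (adjusted p = 2.2e-06) and was the other lower DEG. NFE2, a transcription factor of platelet formation, had 3278, 3280 and 3045 in control and 2672, 2418 and 2308 in C3, a log2 fold change of -0.38 ± 0.07 (adjusted p = 0.00019) just under the fold gate. In edgeR 2 of the 12 tested were lower DEGs, where 1.47% of all tested genes were, and DESeq2 and limma-voom each gave 3.

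Markers of other cell types were summed in the same way. Of these lists, 6 erythroid, 3 T cell, 1 B cell, 3 myeloid and 4 stromal genes were tested. Over all tested genes 5.05% were higher DEGs, 1.47% were lower DEGs, 11.0% rose and 8.77% fell in edgeR. The 8 erythroid markers, led by KLF1, had between 937 and 1041 normalized counts in control and between 1020 and 1123 in C3. ALAS2 rose and HBA2 fell, neither as a DEG. The ALAS2 call was lost without control replicate 1 or 3 or C3 replicate 2 or 3 (adjusted p at most 0.20), and the HBA2 call without control replicate 1 or 2 or C3 replicate 2 or 3 (at most 0.12). With DESeq2 neither passed (0.13 for ALAS2 and 0.086 for HBA2). Of the 6 T cell markers, CD4 was abundant, with a list sum between 4671 and 5223 over the 6 libraries, while CD3D, CD3G and CD8A had at most 2.87, CD3E between 5.88 and 21.6, and CD2 between 21.2 and 38.2. The 4 B cell markers, led by CD79A, summed to between 55.1 and 80.3, and MS4A1 had 0 counts. The 7 myeloid markers summed to between 899 and 945 in control and between 720 and 745 in C3, and LYZ, with 34.7% of its exon bases opposite another gene, was a lower DEG (log2 fold change -0.51 ± 0.08, SE, adjusted p = 4.7e-05 in edgeR). The 6 stromal markers summed to between 686 and 845 in control and between 499 and 529 in C3, with LUM the most abundant and a lower DEG (-0.66 ± 0.09, adjusted p = 6.4e-06). COL1A1 was a higher DEG with at most 26.7 normalized counts, and not without control replicate 1 (0.02), 2 (0.024) or 3 (0.043) or with limma-voom (0.016). It reached the count minimum only through the C3 libraries, in which it is high, so its call is not independent of that minimum. DESeq2 gave it no adjusted p, and without any 1 of the C3 replicates 1 to 3 it was under the count minimum. The part of these markers in the pathway results was not tested.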

How the data were processed

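Counts per gene were deposited by the authors as raw whole numbers. The submitters' processing notes name fastp, STAR 2.6.1d, featureCounts 1.5.0-p3 and DESeq2 with GRCh38/hg38, without stating strand or annotation release. Genes reaching 10 counts in 3 or more libraries were scaled by TMM and tested with edgeR 4.0.16 (quasi-likelihood, R 4.3.3), with Benjamini-Hochberg adjustment over all 15078 genes. Dividing a log2 fold change by the root of its F statistic gave its SE. Exact two-sided permutation tests were run per gene. Symbols, coordinates and overlaps came from GENCODE release 44, which holds 58207 of the 58735 identifiers.

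The 10 genes and all lists were chosen with earlier results of these data known. The lists of Wnt pathway genes and cell type markers were written by hand. Named genes were the 10 genes, each list's DEGs and its gene of the highest level per kb, neighbours within 500 kb, the 5 genes most like SFRP1, the megakaryocyte markers, and DEGs among other markers. Genes named beyond this rule were chosen after their values were seen. Alternatives were RLE factors, library size alone, no count minimum, a mean count of at least 50, DESeq2 1.42.0, limma-voom (limma 3.58.1), a replicate block, each library left out, other gates and another measure of likeness. The fits were tested on simulated data. Intervals and limits for 0 counts cover counting error only.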

Additional observations from a re-analysis of the deposited data

How the results depend on the processing

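For 51 tested genes other than SFRP1, 542 of 651 values were unchanged in sign, in passing 0.05 and in being a DEG. In 57 the gene no longer passed, in 3 it passed only under the alternative, in 13 it still passed but was no longer a DEG, in 24 it became a DEG, and 12 changed sign. The reversals were all in genes near 0. FZD1 had a log2 fold change of 0.0023, and gave -0.0012 with RLE factors, -0.0008 with the replicate block, -0.0072 with DESeq2, and -0.015 to 0.040 with single libraries left out. LRP5 gave -0.016 to 0.136 with single libraries left out, below 0 without control replicate 3 or C3 replicate 1. WNT10B gave 0.0425 with library size alone and -0.067 to 0.035 with libraries left out, above 0 without C3 replicate 3. SCRIB gave -0.049 to 0.088, below 0 without control replicate 3. SFRP1 stayed between 1.18 and 1.29.

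With library size alone, 1025 genes were higher DEGs and 100 lower, 91.1% higher where TMM gave 77.4%, and the median log2 fold change of all genes was 0.076. With TMM and an adjusted p below 0.05 without a fold minimum, 1658 rose and 1323 fell, and 26 and 3 of the pathway genes. Leaving out single libraries gave 129 to 340 lower DEGs, the most without C3 replicate 1 and the fewest without C3 replicate 3, and 0 to 1 lower DEGs in the pathway, where CTNNBIP1 was called without C3 replicate 1. The count of DEGs among the 8 tested genes besides SFRP1 was 0 to 1 in these fits and 0 with DESeq2, each time through FZD6. The cause was not tested.

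Deviations of same-numbered control and C3 libraries from their group means correlated at 0.015, -0.044 and 0.029. Pairs with different numbers lay between -0.0698 and 0.0625. With 3 libraries per group these values cannot show whether same-numbered libraries shared a culture or a preparation. The replicate block gave 909 higher and 268 lower DEGs, and 16 higher DEGs in the pathway with all 14 shared, and ROR1 did not pass in it (0.054). By Pearson's r instead of distance, 1 of the 5 genes most like SFRP1, PAQR5, remained.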
